A study of Mus musculus with 6 samples.

Results

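The 10 genes of adenosine and extracellular nucleotide signalling described here were measured in cells sorted on CD11c from mouse melanomas. They were taken by symbol from the deposited expression table, and all 10 were found, each with 1 Ensembl ID, among 54532 rows. All 10 passed the filter for testing, a mean of at least 1 FPKM (fragment counts scaled to transcript length and to library size) over the 6 libraries. The Gli2CA group held 3 libraries, from tumours of melanoma cells carrying an active mutant of Gli2, a transcription factor of the Hedgehog pathway. The NTC group held 3 libraries, from tumours of the same line with a non-targeted control. In both groups the line carries the BRAF V600E mutation. Its cells were grown under puromycin, implanted with Matrigel into C57BL/6 mice, and the tumours were harvested on day 28. The ages of the mice are not in the labels, nor is it said whether Gli2CA and NTC are each 1 clone or whether each library is 1 mouse, and p-values therefore cover only how much these libraries vary, which may be technical. The labelled genotype was introduced in the implanted tumour cells, and the sorted cells were meant to be those of the host.

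Cells release ATP and other nucleotides when they are damaged or stressed, and immune cells read these as danger signals through P2 receptors. Ectoenzymes on the cell surface strip the phosphates from ATP and leave adenosine, which acts through its own receptors to raise cyclic AMP and to dampen T cells and antigen-presenting cells. Dendritic cells carry receptors of both kinds. The genes are described below as enzymes that make adenosine, enzymes that handle it, adenosine receptors, and receptors for nucleotides.

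The libraries differed in how many moderately expressed genes they listed near 0. Reads recovered from the FPKM values came to between 18790000 and 29130000 per library. Of the 3646 genes that stood between 5 and 20 FPKM in NTC 2, 6.91%, 10.7% and 10.3% were below 0.1 FPKM in Gli2CA 1, 2 and 3, against 42.1% in NTC 1 and 34.1% in NTC 3. NTC 1 and NTC 3 thus stood apart from the other 4 libraries, and differences of genes near 0 in them are also given without both. The label of dendritic cells was checked against markers. Itgax, which encodes CD11c, stood at 118 to 224 FPKM in Gli2CA and 62.4 to 117 in NTC, and Flt3, the growth factor receptor of the lineage, at 30.5 to 57.03 FPKM in Gli2CA and 39.5 to 79.9 in NTC. Zbtb46, a transcription factor of conventional dendritic cells, stood at 11.3 to 20.9 FPKM in Gli2CA and at 2.33, 47.6 and 47.2 in NTC 1, 2 and 3. Macrophage genes were abundant, the 8 markers summing to 4643 to 9229 FPKM in Gli2CA and 6333 to 8884 in NTC, and of the 8 only the scavenger receptor gene Msr1 lay wholly apart, at 146 to 265 FPKM in Gli2CA and 22.9 to 50.2 in NTC. T cell genes were present as well, the 7 markers summing to 571 to 860 FPKM in Gli2CA libraries and 940 to 1787 in NTC libraries. In bulk samples like these, fewer cells of a type and less RNA per cell cannot be told apart.

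**Figure D1:**
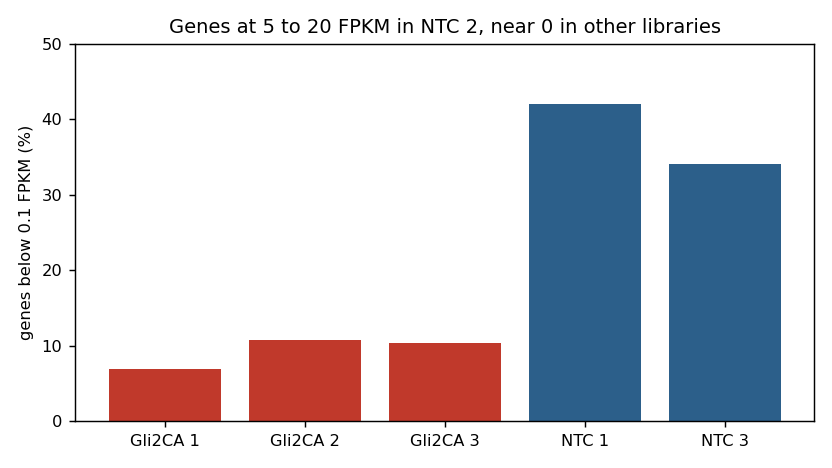
Share of the 3646 genes at 5 to 20 FPKM in NTC 2 that were below 0.1 FPKM in each other library (bars, percent). The Gli2CA libraries lie between 6.91% and 10.7%, and NTC 1 and NTC 3 at 42.1% and 34.1%.

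None of the 10 genes differed past the threshold. In limma's fit to log2(FPKM + 1), 0 of 10 reached a Benjamini-Hochberg adjusted p of 0.05 over all 12266 genes tested, where 0% of all genes passed, and 0 genes passed with voom on the recovered reads. At an unadjusted p under 0.05 there were 2 of the 10, against 10.6% of all genes tested. These were Nt5e, higher in Gli2CA as 7.82% of all genes were, and Ada, lower as 2.81% were. Neither stayed under 0.05 without Gli2CA 2, where 7.43% of all genes were under it. Without both NTC 1 and NTC 3, which leaves a lone NTC library, the log2 difference was 0.28 for Nt5e and -2.63 for Ada. The 3 libraries of a group lay wholly apart from those of the other in 2 of the 10, Ada and P2ry6, against 16.6% of all genes, a share near the background. Of the 10, 6 had the higher mean log2 level in Gli2CA and 4 the lower, where 59.7% of all genes had the higher, with a median log2 difference of 0.29 where the median of all genes was 0.25. The median of the 10 was 0.63 without NTC 2, where that of all genes was 0.49. Without both NTC 1 and NTC 3 it was 0.15, where that of all genes was -0.10. Each log2 difference subtracts the NTC mean of log2(FPKM + 1) from that of Gli2CA, and the added 1 makes differences of weakly expressed genes too small.

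**Figure D2:**
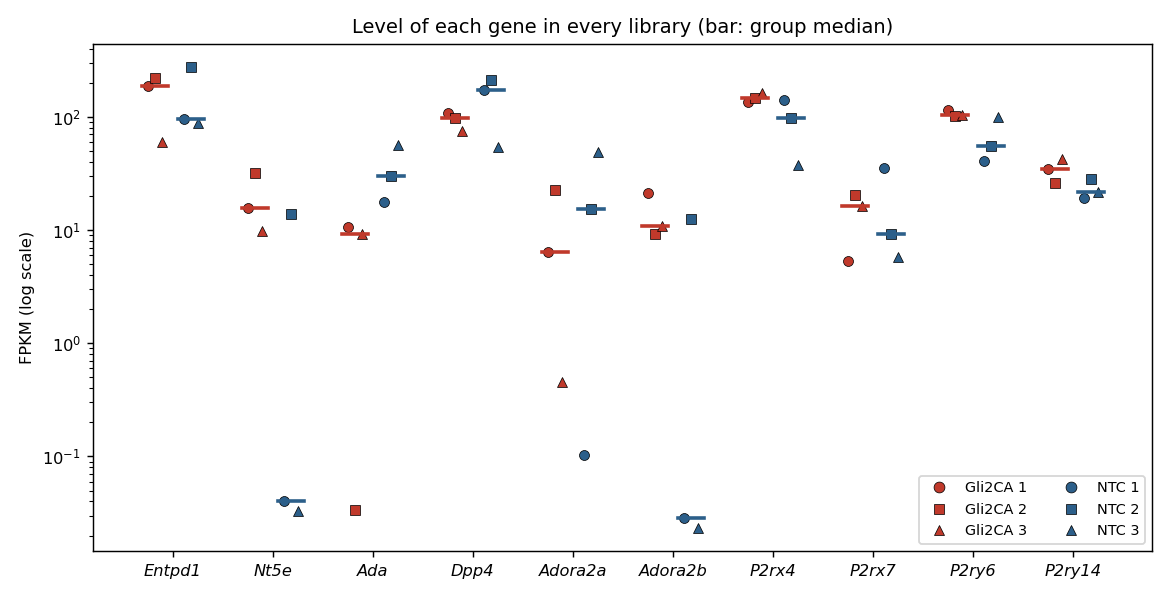
FPKM (log axis) of the 10 genes in every library, Gli2CA in red left of NTC in blue, with a marker shape per library and a bar at the group median. Nt5e and Adora2b sit near 0.03 FPKM in NTC 1 and NTC 3 and between 9.13 and 32.1 FPKM in the other 4 libraries, and Ada is lower in each Gli2CA library than in any NTC library.

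Entpd1 encodes CD39, the ectoenzyme that takes ATP and ADP down to AMP, and had the highest mean FPKM of the 10 genes in both groups, although it was the highest in only 3 of 6 libraries. It lies at chromosome 19, 40612366 to 40741602 (GRCm38). Its FPKM values were 187, 222 and 59.8 in Gli2CA 1, 2 and 3, and 96.0, 275 and 87.7 in NTC 1, 2 and 3. The groups overlapped widely, and the highest and lowest values belonged to NTC 2 and Gli2CA 3. Between group means the log2 difference was 0.04, with a 95% interval of -1.34 to 1.41 (limma adjusted p = 0.987). Its sign was unstable, being negative in 8 of 16 alternatives, among them without Gli2CA 1 (-0.20), without NTC 3 (-0.26) and after median-of-ratios scaling (-0.02).

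Nt5e encodes CD73, which takes AMP to adenosine and so completes the surface pathway. It lies at chromosome 9, 88327197 to 88372092. Its level was 15.5, 32.1 and 9.75 FPKM in the Gli2CA libraries, against 0.0405, 13.8 and 0.0328 FPKM in the NTC libraries. Behind these values lay 1188, 2241 and 654 reads in Gli2CA, against 2, 1015 and 2 reads in NTC. The transcript was thus well covered in all 3 Gli2CA libraries and in NTC 2, and nearly absent from NTC 1 and NTC 3. NTC 2 fell inside the Gli2CA range, so the groups overlapped. The log2 difference was 2.84 ± 1.19 (SE, limma unadjusted p = 0.0435, adjusted p = 0.452, exact two-sided permutation p = 0.2). All 3 Gli2CA libraries exceeded NTC 1 and NTC 3, and 2 of 3 exceeded NTC 2. The difference was 4.12 without NTC 2, but 0.28 without both NTC 1 and NTC 3, a fit that lends the lone NTC library the spread of Gli2CA. It was 5.77 with voom on recovered reads and 1.76 with a block by description number. In that block Gli2CA 2 and NTC 3 share a number with no library of the other group. Its group difference therefore rests on Gli2CA 1, Gli2CA 3, NTC 1 and NTC 2 alone. NTC 2 also had the highest sum of the 7 fibroblast markers, at 3404 FPKM. That sum was 60.0 to 327 FPKM in Gli2CA libraries and 28.6 and 8.90 in NTC 1 and NTC 3. Col3a1, Col1a2 and Col1a1 carried most of it in NTC 2, at 1660, 748 and 732 FPKM. Pdgfra and Pdgfrb, of the same list, were 0 in NTC 2 and above 0 only in NTC 1, at 5.08 and 0.806 FPKM. The part of fibroblast RNA in the Nt5e value of NTC 2 was not tested. Of the 7 melanoma markers, Mlana, Tyr, Dct and Tyrp1 were below 0.1 FPKM in all 6 libraries. The 7 summed to 18.02 to 24.1 FPKM in Gli2CA and 0 to 1.34 FPKM in NTC. Sox10 carried most of the Gli2CA sum, at 19.8, 12.1 and 18.4 FPKM in Gli2CA 1, 2 and 3, and was 0 in every NTC library. The rest summed to 0.817 to 5.93 FPKM in Gli2CA and 0 to 1.34 in NTC. The part of tumour cell RNA in the Nt5e values was not tested.

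Adora2b encodes the low-affinity A2B adenosine receptor, which couples to cyclic AMP, and it was near 0 in the same libraries as Nt5e. It lies at chromosome 11, 62248984 to 62266453. Its level was 21.1, 9.13 and 10.8 FPKM in Gli2CA, against 0.0289, 12.5 and 0.0234 FPKM in NTC. In reads this was 1136, 447 and 506 in Gli2CA, against 1, 641 and 1 in NTC. Again NTC 2 lay within the Gli2CA range while NTC 1 and NTC 3 were near 0. The log2 difference of 2.51 ± 1.16 (SE) did not pass (limma adjusted p = 0.479, exact two-sided permutation p = 0.3), was 3.75 without NTC 2, 5.64 with voom on recovered reads, and 0.04 without both NTC 1 and NTC 3. Among all genes tested, 18.1% were below 0.1 FPKM in both NTC 1 and NTC 3. The part of whatever sets those libraries apart in the differences of Nt5e and Adora2b was not tested.

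Human NT5E and ADORA2B are known as targets of hypoxia-inducible factors, which bind the core letters ACGTG or GCGTG. Both strands of the 250 bases before each RefSeq transcript start (GRCm38.p6) were searched for either core. An entry was found for 8 of the 10 genes, and 4 of the 8 (Entpd1, Nt5e, Adora2b and P2ry14) held a core in at least 1 window. That was 4 of their 13 windows, where 38.6% of all 32851 windows did. The windows with a core in Nt5e, Entpd1 and P2ry14 overlapped annotated exons, by 250, 118 and 126 of 250 bases. No window of the 8 held the full cyclic AMP response element TGACGTCA, present in 1.55% of all windows. The upstream window of Adora2b and that of Ada, the gene that ran the other way, are shown with core matches in capitals. Nt5e is shown only around its match, since its whole window lies in annotated exon sequence. In that order, the stretches shown lie at chr11:62248734-62248983 (plus strand), chr2:163750240-163750489 (minus strand) and chr9:88327459-88327487 (plus strand).
Adora2b: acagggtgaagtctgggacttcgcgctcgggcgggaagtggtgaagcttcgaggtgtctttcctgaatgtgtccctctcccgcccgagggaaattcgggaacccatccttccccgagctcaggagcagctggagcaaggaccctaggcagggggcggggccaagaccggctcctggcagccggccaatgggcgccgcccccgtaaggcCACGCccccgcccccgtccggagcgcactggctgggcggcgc
Ada: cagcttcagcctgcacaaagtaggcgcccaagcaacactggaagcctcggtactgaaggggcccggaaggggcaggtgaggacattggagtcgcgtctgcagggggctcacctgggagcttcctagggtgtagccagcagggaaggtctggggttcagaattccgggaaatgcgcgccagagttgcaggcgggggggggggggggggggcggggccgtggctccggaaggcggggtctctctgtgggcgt
Nt5e: tccctgcgggctGCGTGtgctgggccaga
In the Adora2b window the match is in reverse, CACGC, 42 bases before the start and next to a run of GC boxes (GGGCGG or its reverse), of which it holds 6. The Ada window held no core and 1 GC box, and 32.7% of all windows held at least 1. The match in Nt5e starts 138 bases before its RefSeq start, inside the gene span given above. These matches describe letters and are not evidence of binding.

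Ada encodes adenosine deaminase, which turns adenosine into inosine and so ends its signal, and it was the gene of the 10 with the smallest p. Ada lies at chromosome 2, 163726584 to 163750239. Its level was 10.6, 0.0337 and 9.18 FPKM in Gli2CA, against 17.7, 29.7 and 56.1 FPKM in NTC. Every Gli2CA library lay below every NTC library, which was also the case for 5.79% of all genes tested. In Gli2CA 2 the value rested on 1 read, against 347 and 262 reads in Gli2CA 1 and 3 and 373, 928 and 1453 in NTC 1, 2 and 3. Mean FPKM was 6.62 ± 5.75 for Gli2CA, against 34.5 ± 19.6 for NTC (SD, n = 3 each). The log2 difference was -2.69 ± 1.04 (SE, limma unadjusted p = 0.0320, adjusted p = 0.412), lower in 3 of 3 Gli2CA libraries, with the smallest exact permutation p that 3 against 3 allow, 0.1. Unlike Nt5e and Adora2b, the difference remained near its size without both NTC 1 and NTC 3, at -2.63, but it was -1.56 without Gli2CA 2. Over all 16 alternatives it was negative, from -4.24 to -1.14, with limma adjusted p of 0.309 to 0.915.

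Ranked by mean FPKM, Ada stood in place 10 of the 10 genes in Gli2CA and in place 5 in NTC, although its range overlapped that of its neighbours in both orders. Most markers of every dendritic cell list, of T cells and of fibroblasts ran the same way. Most B cell, monocyte and macrophage markers did not. The 8 markers of type 1 conventional dendritic cells, the cross-presenting subset, summed to 707 to 807 FPKM in Gli2CA and 1124 to 2047 in NTC, with all 8 lower on average in Gli2CA and 6 of 8 wholly apart. The 7 mature dendritic cell markers summed to 232 to 627 FPKM in Gli2CA and 530.4 to 1097 in NTC, and Ccr7 alone of them lay wholly apart. Of the type 2 conventional dendritic cell markers, 5 of 7 were lower on average in Gli2CA, and Mgl2 alone lay wholly apart. Of the plasmacytoid dendritic cell markers, 5 of 7 were lower, and all 7 overlapped. All 7 fibroblast markers were lower on average, although their sum was high in NTC 2 alone. Of the T cell markers, 6 of 7 were lower on average in Gli2CA, and their sums given above did not overlap, but only Trac and Cd8a lay wholly apart and the other 5 overlapped. The 6 B cell markers summed to 118 to 207 FPKM in Gli2CA and 463 to 680.3 in NTC, a separation carried by Ighm, and the other 5 were higher on average in Gli2CA. The part of these cell types in the Ada values was not tested.

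Dpp4 encodes CD26, a surface peptidase that trims chemokines and that in humans anchors adenosine deaminase to the cell. Dpp4 lies at chromosome 2, 62330073 to 62412231. Its level was 109, 97.1 and 74.7 FPKM in Gli2CA, against 171, 209 and 53.9 FPKM in NTC. The groups overlapped through NTC 3, which had the lowest value of all. Its log2 difference was -0.43, with a 95% interval of -1.59 to 0.74 (limma adjusted p = 0.765). Its size rested on single libraries, at -1.02 without NTC 3 and -0.05 without NTC 2. An annotated antisense transcript, Gm13561, overlaps Dpp4, and it was above 1 FPKM in NTC 2 alone, at 3.59.

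Adora2a encodes a high-affinity adenosine receptor that restrains T cells and dendritic cells, and it had the widest 95% interval of the 10 genes. Adora2a lies at chromosome 10, 75316877 to 75334784. Its level was 6.42, 22.5 and 0.452 FPKM in Gli2CA, against 0.102, 15.4 and 48.4 FPKM in NTC. Both groups ran from well under 1 FPKM to over 20, with 12 reads in Gli2CA 3 and 2 reads in NTC 1. The log2 difference of -0.60 had a 95% interval of -4.18 to 2.97 (limma adjusted p = 0.899). The sign turned without NTC 3 (0.58) and without Gli2CA 3 (0.46). Unlike Adora2b, Adora2a had its highest level in NTC 3.

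P2rx4 and P2rx7 encode ATP-gated cation channels that lie 16111 bases apart on the plus strand of chromosome 5. P2rx7 opens at high ATP and drives inflammasome activation, while P2rx4 opens at lower ATP. P2rx4, at 122707544 to 122729738, had 135, 148 and 163 FPKM in Gli2CA, and 140.4, 97.0 and 37.6 FPKM in NTC. The Gli2CA values lay close together and those of NTC were spread, with NTC 1 inside the Gli2CA range. The log2 difference was 0.88 ± 0.47 (SE, limma adjusted p = 0.526, exact two-sided permutation p = 0.2), and 0.34 without NTC 3. P2rx7, at 122643911 to 122691432, had 5.33, 20.4 and 16.2 FPKM in Gli2CA, and 34.9, 9.28 and 5.81 FPKM in NTC. Its groups overlapped fully, and the log2 difference of -0.04 (95% interval -2.01 to 1.94, limma adjusted p = 0.990) turned to 0.67 without NTC 1 and to 0.50 without Gli2CA 1. The channel with the lower ATP threshold was thus the more abundant per length in every library.

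P2ry6 encodes a receptor for UDP, a nucleotide released by dying cells, and was the second gene whose groups did not overlap. P2ry6 lies at chromosome 7, 100937630 to 100974649. Its level was 116, 102 and 103 FPKM in Gli2CA, against 40.4, 54.8 and 99.8 FPKM in NTC. The Gli2CA libraries lay close together, and NTC 3 was just below them. For comparison, 10.9% of all genes lay wholly higher in Gli2CA. The log2 difference was 0.81 ± 0.39 (SE, limma adjusted p = 0.499), higher in 3 of 3 libraries, with an exact permutation p of 0.1, the smallest possible. With median-of-ratios scaling the groups of P2ry6 overlapped, those of P2ry14 did not, and the P2ry6 difference was 0.75, and it was 0.52 without NTC 1 and 0.95 without both NTC 1 and NTC 3. It was above 0 in all 16 alternatives. Gm44545, annotated on the opposite strand, was at 1.15 FPKM in Gli2CA 1 and listed at 0 in the other libraries.

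P2ry14 encodes the receptor for UDP-glucose and related sugars. It lies at chromosome 3, 59113855 to 59153618, and had 34.3, 26.2 and 42.4 FPKM in Gli2CA, against 19.0, 28.1 and 21.6 FPKM in NTC. NTC 2, at 28.1, lay above Gli2CA 2 and made the groups overlap. The log2 difference was 0.55 ± 0.47 (SE, limma adjusted p = 0.680, exact two-sided permutation p = 0.2), between 0.25 and 0.73 in the alternatives. The gene lies within the span of Med12l, on the opposite strand, and Med12l was at 2.07 FPKM or less in every library. Whether exons of the 2 genes overlap was not checked. Only where they do would reads depend on the strand setting, which is not known. Monocyte markers ran the same way as P2ry6 and P2ry14. The 7 of them summed to 3441 to 4909 FPKM in Gli2CA and 1620 to 2159 in NTC, all 7 higher on average in Gli2CA and 4 of 7 wholly apart. The part of these cells in either gene was not tested. Of the 7 neutrophil markers, Cxcr2, Ly6g and Retnlg were below 0.1 FPKM in all 6 libraries, and only Il1r2 lay apart, at 546 to 865 FPKM in Gli2CA and 0.336 to 242 in NTC. The other 6 summed to 11.7 to 244 FPKM in Gli2CA and 43.1 to 76.8 in NTC, which overlap.

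**Figure D3:**
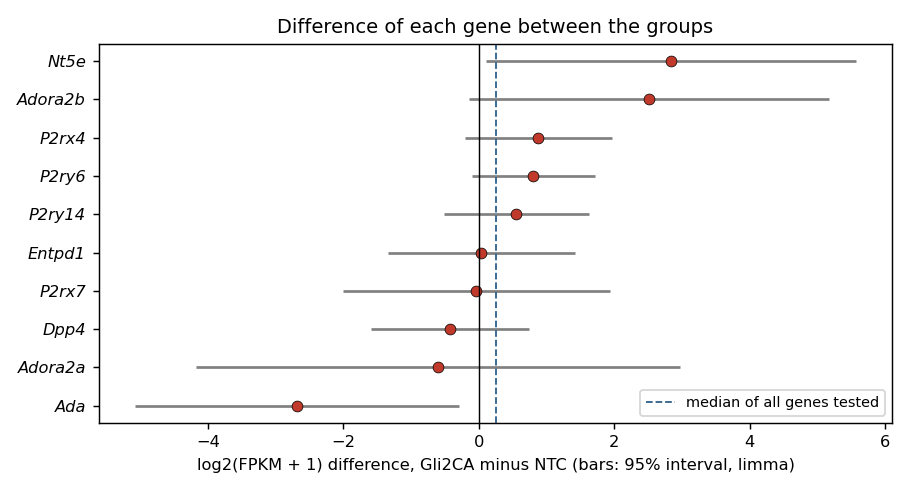
Difference of log2(FPKM + 1), Gli2CA minus NTC, for the 10 genes (points) with the 95% interval of limma (bars), and the median of all genes tested at 0.25 (dashed). Only the intervals of Nt5e, 0.11 to 5.58, and Ada, -5.08 to -0.29, leave out 0 before adjustment.

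Pairs of genes were also set against each other within a library, where library scaling largely cancels but a value near 0 does not. The level of Ada minus that of Nt5e, both as log2(FPKM + 1), was -0.50, -5.00 and -0.08 in Gli2CA 1, 2 and 3, against 4.17, 1.05 and 5.79 in NTC 1, 2 and 3. The transcript of the enzyme that makes adenosine thus had the higher level in every Gli2CA library. That of the enzyme that removes adenosine was higher in every NTC library, NTC 2 included. The values of NTC 1 and NTC 3 rested on 2 Nt5e reads each, and that of Gli2CA 2 on 1 Ada read. The difference between the group means was -5.53 (exact two-sided permutation p = 0.1, the smallest possible). It is the log2 difference of Ada, -2.69, less that of Nt5e, 2.84, and so restates those values. It was negative in every alternative in which pairs were computed, which left out voom and those changing only the filter or the trend. In Gli2CA 1 and Gli2CA 3 the 2 genes were close, so the crossing over 0 rested there on small differences. Nt5e minus Entpd1 was -3.51, -2.75 and -2.50 in Gli2CA, against -6.54, -4.22 and -6.42 in NTC, again without overlap (difference 2.81, exact two-sided permutation p = 0.1). That value likewise follows from the log2 differences of Nt5e, 2.84, and Entpd1, 0.04. Without both NTC 1 and NTC 3 the difference was -2.91 for Ada minus Nt5e and 1.30 for Nt5e minus Entpd1.

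Receptor pairs were less separated. Adora2b minus Adora2a was 1.58, -1.21 and 3.02 in Gli2CA, against -0.10, -0.28 and -5.59 in NTC. Gli2CA 2 made the groups overlap (difference 3.12, exact two-sided permutation p = 0.3). P2rx7 minus P2rx4 was -4.43, -2.79 and -3.25 in Gli2CA, against -1.98, -3.25 and -2.50 in NTC (difference -0.91, exact two-sided permutation p = 0.3). With 4 such comparisons made, the Benjamini-Hochberg adjusted values were 0.2 for the enzyme pairs and 0.3 for the receptor pairs. None could have passed with 3 libraries against 3.

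**Figure D4:**
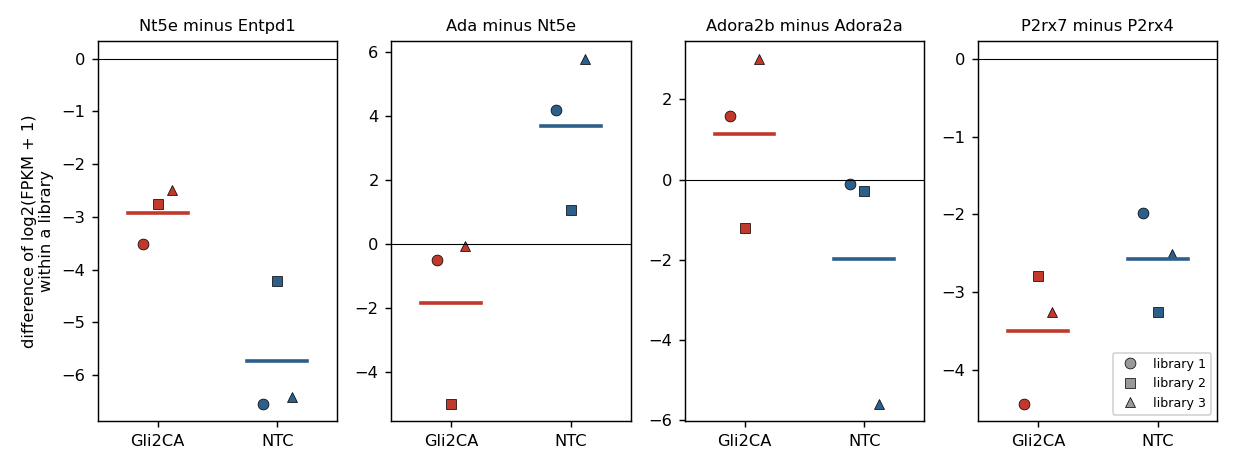
Difference of log2(FPKM + 1) between 2 genes of the same library (points, shape by library number) with the group mean (bar), Gli2CA left of NTC. Ada minus Nt5e lies below 0 in all 3 Gli2CA libraries and above 0 in all 3 NTC libraries.

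The wider pathway was described with 40 other genes for nucleotide breakdown, adenosine transport and purinergic receptors. Of these, 26 were tested and 0 passed (limma, adjusted over all genes), with 6 at an unadjusted p under 0.05, all 6 higher in Gli2CA as 7.82% of all genes were. In 7 of the 26 the groups did not overlap, all 7 higher in Gli2CA, against 10.9% of all genes. The median log2 difference was 0.84 over the 26 and 0.25 over all genes. Of the 26, 7 were below 0.1 FPKM in both NTC 1 and NTC 3, namely Entpd2, Entpd5, Enpp1, Slc29a2, P2ry2, P2ry12 and Slc17a9. Without both NTC 1 and NTC 3 the median over the 26 was -0.10, equal to that of all genes, with 12 genes higher and 14 lower. The 6 genes at an unadjusted p under 0.05 stood against 10.6% of all genes in either direction. Their number was 1 with a block by description number, where 3.20% of all genes were under it. It was 9 without NTC 2, where 19.6% of all genes were.

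P2ry2, a receptor for ATP and UTP, had 26.4, 17.1 and 20.1 FPKM in Gli2CA, against 0, 7.33 and 0 in NTC (log2 difference 3.43, limma adjusted p = 0.273). Here NTC 2 was also below all Gli2CA libraries, and the log2 difference was 1.39 without both NTC 1 and NTC 3. Gja1, the gap junction protein connexin 43, whose hemichannels release ATP, had 50.05, 6.94 and 19.2 FPKM in Gli2CA, against 0.145, 4.43 and 0.0705 in NTC. P2ry12, an ADP receptor known from platelets and microglia, had 4.31, 19.4 and 13.3 FPKM in Gli2CA, against 0, 3.71 and 0.0684 in NTC. In both genes NTC 2 stood above the other NTC libraries and below every Gli2CA library. Leaving out NTC 1 and NTC 3 together took the difference to 1.89 for Gja1 and 1.30 for P2ry12, against 3.42 and 2.76 with all libraries. P2ry12 also lies within the span of Med12l, and overlap of their exons was likewise not checked.

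Bst1 was the one of the 6 without a library near 0. It encodes CD157, a surface enzyme of the CD38 family that uses NAD, and had 39.6, 41.4 and 34.6 FPKM in Gli2CA, against 11.1, 15.5 and 13.6 FPKM in NTC. Neither group was widely spread, and the groups lay well apart (log2 difference 1.46 ± 0.48 SE, limma adjusted p = 0.326). Entpd2, a surface enzyme that prefers ATP over ADP, had 17.6, 6.66 and 2.37 FPKM in Gli2CA, against 0, 0.741 and 0 in NTC. Slc29a2, a nucleoside transporter, had 1.89, 4.0 and 3.76 FPKM in Gli2CA, and 0.0431, 0 and 0 in NTC. Leaving out NTC 1 and NTC 3 together gave log2 differences of 2.17 for Entpd2, 2.03 for Slc29a2 and 1.26 for Bst1.

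Adk, adenosine kinase, which returns adenosine to AMP inside the cell, had 149, 47.8 and 45.1 FPKM in Gli2CA, and 29.3, 45.0 and 2.96 FPKM in NTC. NTC 2 and Gli2CA 3 nearly met, so the separation was slight (log2 difference 1.98, limma adjusted p = 0.493). The transporter genes Slc29a1 and Slc29a3 had log2 differences of 0.80 and 0.86 with overlapping groups. On the lower side, no gene was separated. P2rx5 had 0, 4.45 and 0 FPKM in Gli2CA and 0.0357, 11.9 and 27.3 in NTC, Adora3 had 3.0, 0.0215 and 1.43 in Gli2CA against 12.3, 3.52 and 2.89 FPKM in NTC, and Panx1, a channel that releases ATP from dying cells, had 4.0, 11.7 and 31.7 in Gli2CA against 20.7, 30.0 and 31.7 FPKM in NTC. Adora1, P2rx2, P2rx3 and P2rx6 were listed at 0 in all 6 libraries, so the adenosine receptors above 0 were Adora2a, Adora2b and Adora3.

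**Figure D5:**
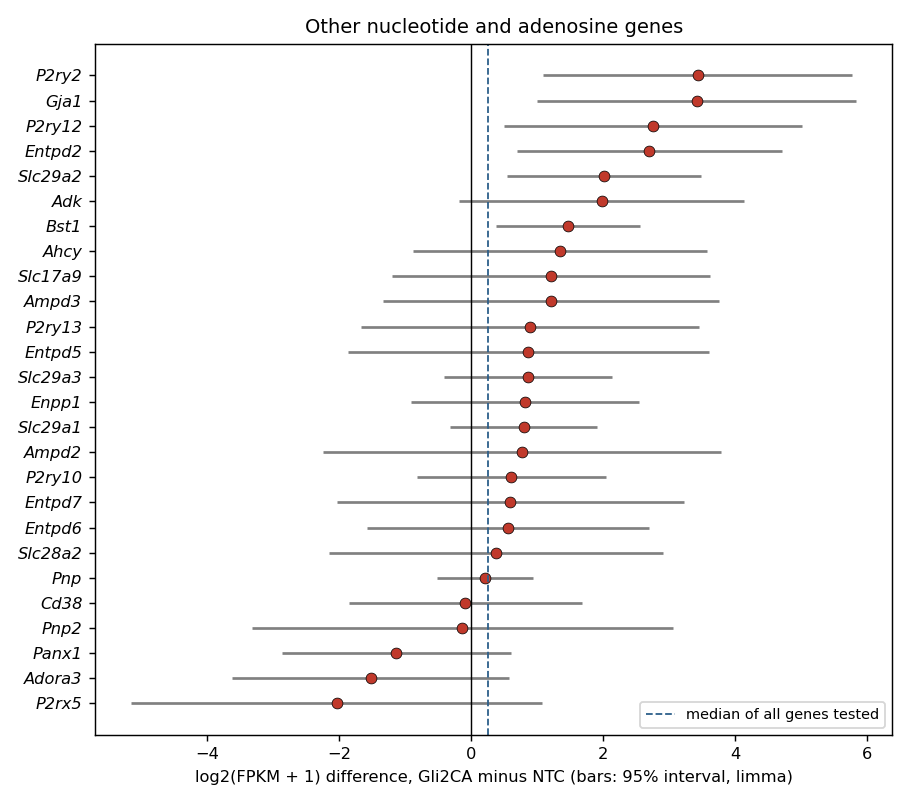
Difference of log2(FPKM + 1), Gli2CA minus NTC, for the 26 other pathway genes tested (points) with the 95% interval of limma (bars), and the median of all genes tested at 0.25 (dashed). P2ry2 leads at 3.43 and P2rx5 is last at -2.04, and none passed after adjustment.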

How the data were processed

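RNA from CD11c-sorted cells of 6 tumour samples was made into poly-A libraries with random priming, per the labels' protocols. Values in the single deposited table are the authors' FPKM, not counts. Which aligner, counter, build, annotation and strand setting they used was not given in the sources used here. One further detail of the cell line's genotype, shared by both groups, is not reported here. Columns were matched by the sample descriptions, and libraries are numbered by the titles. A reference table gave symbols for 54409 of 54532 IDs, and coordinates are from GENCODE M21 on GRCm38.

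Limma 3.58.1 in R 4.3.3 was run on log2(FPKM + 1) for genes averaging 1 FPKM or more, with group as the only term, a variance trend and two-sided p-values adjusted by Benjamini-Hochberg over 12266 genes. Single values had exact permutation tests. FPKM times mean transcript length gave whole reads, within 0.05, for 97.0 to 98.4% of low values, and intervals or floors from them cover counting error only. Fits were tested on simulated data. Members and lists were chosen with earlier results of these data known. Named genes are all 10 members and the 12 of the wider list with the smallest p, plus receptors at 0 and those used as background. Promoter windows are from RefSeq (GRCm38.p6). Figures used matplotlib 3.10.9. Alternatives were another pseudocount, other filters, median-of-ratios and quantile scaling, no trend, replicate blocks, libraries left out, and voom on recovered reads.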

Additional observations from a re-analysis of the deposited data

How the results depend on the processing

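Under 16 alternatives, 0 of the 10 genes and 0 of the 26 wider genes passed in any of those run. Over all genes the count of 0 became 21 after quantile normalization and 0 to 6 on leaving out 1 library, the 6 without NTC 2. Genes with groups that did not overlap were 2 of 10, where 16.6% of all genes were separated. On leaving out 1 library other than NTC 2 they were 3 of 10, where 21.4% to 27.2% of all genes were. Without NTC 2 they were 5, namely Nt5e, Ada, Adora2b, P2ry6 and P2ry14, where 38.04% of all genes were. They were 5 without both NTC 1 and NTC 3, where 54.0% were. The median of the 10, 0.29, was 0.52 without Gli2CA 1, 0.54 without Gli2CA 3, 0.63 without NTC 2 and -0.013 under the description-number block, moves below the spread of 0.50 between libraries. That of all genes was -0.03 after quantile normalization, against 0.25. Of genes at an unadjusted p under 0.05, 73.5% were higher in Gli2CA, against 53.0% without both NTC 1 and NTC 3 and 61.5% with quantile normalization. Of the 10, 2 were under it, but 0 without Gli2CA 2 and 0 with the block by description number, where 7.43% and 3.20% of all genes were. Over all genes their number was 1304, but 393 with a replicate block by description number and 2362 without NTC 2.

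Signs turned for 3 genes, none of which had passed. Entpd1 was -0.021 with median-of-ratios scaling, -0.61 with a replicate block by description number, -1.01 without both NTC 1 and NTC 3, -0.018 with voom on recovered reads, an alternative added after seeing the data, and -0.32 to 0.62 on leaving out 1 library. P2rx7 was 0.37 without both NTC 1 and NTC 3, 0.075 with voom, and -0.53 to 0.67 on leaving out 1 library. Adora2a was -2.17 to 0.58 on leaving out 1 library. The cause was not tested.

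Libraries with the same title number did not deviate together (r of -0.04, -0.002 and -0.007 across genes), so no pairing by title number was seen. Pairing by description number was not checked in this way. With a replicate block by title number 0 genes passed, and with the block by description number 0 passed. Values of the 10 genes below 0.1 FPKM rest on 1 or 2 reads and set no order.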
